A study of Mus musculus with 4 samples.

Results

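The genes described here encode the enzymes that make cholesterol and fatty acids, with the regulators that control them, measured in Ba/F3 cells that were kept alive by interleukin-3 (IL-3), by the oncogene BCR-ABL, or by both. They were chosen by name as 31 genes of the pathway, and 30 of them had a value among the 19935 genes of the series. Acat2 had no probe set annotated with that symbol alone. Ba/F3, an early B lineage line from the mouse, depends on IL-3 for growth, and BCR-ABL is the kinase that drives chronic myeloid leukaemia. The 4 Affymetrix Gene 1.0 ST arrays held parental Ba/F3 cells given IL-3 (n = 1), cells with doxycycline-inducible BCR-ABL grown in doxycycline without IL-3 (n = 2, arrays A and B) and such cells grown in doxycycline with IL-3 (n = 1). Doxycycline was used at 500 ng/ml in the inducible cells, and all cultures were in logarithmic growth. The study asked which transcripts BCR-ABL and the growth factor drive, in the context of resistance to imatinib. Whether A and B were separate cultures, whether the inducible line is 1 clone and whether the parental cells saw doxycycline is not stated in the labels. BCR-ABL, doxycycline and the derived line therefore cannot be told apart against the parental cells, and p-values cover only the spread between A and B, which may be technical.

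Cholesterol is built from acetyl-CoA through mevalonate, isoprenoid units, squalene and lanosterol, while fatty acids are built from the same acetyl-CoA by carboxylation and chain extension. Both branches are switched on by the SREBP transcription factors. SREBP precursors sit in the endoplasmic reticulum bound to the escort protein SCAP, and when sterols are plentiful the INSIG proteins hold SCAP there. When sterols run low, SCAP carries SREBP to the Golgi, where it is cut and released to the nucleus. Growing blood cells use this programme to make membrane.

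Promoter sequences are shown for 6 members because the results turn on them: Acss2, Idi1 and Hsd17b7 passed the test against parental cells, Insig1 and Fasn differed most between A and B, and Hmgcs1 was the one member whose window held the sterol regulatory letters searched. Each window is the 250 bases before the RefSeq gene start in GRCm38.p6, written 5′ to 3′ along the gene. Capitals mark 3 motifs sought on both strands, which were TCACNCCAC (a core of the sterol regulatory element bound by SREBP), CACGTG (the E-box) and CCAAT (the NF-Y box, which reads ATTGG on the other strand).
Acss2, chr2:155517793-155518042, plus strand: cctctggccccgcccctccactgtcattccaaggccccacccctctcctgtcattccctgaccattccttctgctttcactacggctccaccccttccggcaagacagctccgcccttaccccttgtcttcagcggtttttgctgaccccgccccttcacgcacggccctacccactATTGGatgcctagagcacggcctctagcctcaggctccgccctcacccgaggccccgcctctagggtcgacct
Idi1, chr13:8885356-8885605, plus strand: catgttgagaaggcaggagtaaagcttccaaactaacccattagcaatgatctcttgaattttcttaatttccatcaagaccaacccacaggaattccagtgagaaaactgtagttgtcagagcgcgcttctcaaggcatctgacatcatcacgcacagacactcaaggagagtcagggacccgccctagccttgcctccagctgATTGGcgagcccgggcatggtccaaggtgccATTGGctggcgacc
Hsd17b7, chr1:169969206-169969455, minus strand: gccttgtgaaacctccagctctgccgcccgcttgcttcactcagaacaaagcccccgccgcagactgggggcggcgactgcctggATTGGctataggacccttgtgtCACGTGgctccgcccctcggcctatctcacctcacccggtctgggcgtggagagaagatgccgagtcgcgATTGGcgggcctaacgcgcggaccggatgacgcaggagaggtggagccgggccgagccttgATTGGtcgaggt
Insig1, chr5:28071162-28071411, plus strand: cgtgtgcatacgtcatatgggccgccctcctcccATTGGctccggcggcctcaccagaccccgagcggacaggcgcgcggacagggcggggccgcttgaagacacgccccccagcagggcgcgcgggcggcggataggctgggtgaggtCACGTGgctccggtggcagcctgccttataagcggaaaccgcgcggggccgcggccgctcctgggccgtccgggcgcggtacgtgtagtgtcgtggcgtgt
Fasn, chr11:120824548-120824797, minus strand: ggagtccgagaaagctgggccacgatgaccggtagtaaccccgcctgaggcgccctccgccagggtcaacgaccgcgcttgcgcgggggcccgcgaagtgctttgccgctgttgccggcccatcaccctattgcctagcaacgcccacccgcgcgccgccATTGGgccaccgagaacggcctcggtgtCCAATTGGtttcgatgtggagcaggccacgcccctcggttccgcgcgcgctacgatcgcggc
Hmgcs1, chr13:119690101-119690350, plus strand: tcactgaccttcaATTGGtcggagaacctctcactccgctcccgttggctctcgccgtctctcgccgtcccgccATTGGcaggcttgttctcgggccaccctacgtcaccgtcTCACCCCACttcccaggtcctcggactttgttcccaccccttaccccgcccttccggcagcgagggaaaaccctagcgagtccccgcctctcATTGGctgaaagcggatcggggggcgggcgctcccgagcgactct
In Fasn a CCAAT box on each strand overlaps the other in CCAATTGG. RefSeq windows were given for 23 members, with 31 windows in all since some genes have several starts. A CCAAT box lay in 19 of the 31 windows (61.3%), against 33.8% of the 32851 windows of all genes. The E-box lay in 4 of 31 (12.9%), against 6.02% of all windows, and the sterol regulatory letters in 1 of 31 (3.23%), against 1.05%. These matches describe the letters of the windows and were not tested as binding sites.

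Each deposited value was read as a log2 difference from the parental array, which stands at 0 for every gene. Absolute levels were therefore not analysed here, and the pro-B identity could not be checked by level. The median over all genes was 0.0044 on A, -0.077 on B and 0.0085 on the IL-3 array. The SD over genes of the difference between A and B was 0.196. Cell type markers in these cells differed in part from the parental array. Of 8 measured B lineage markers 0 passed limma's test and 1 had an unadjusted p under 0.05 (16.6% of all genes did). Their fitted differences ran from -0.40 for Cd79b to 0.17 for Cd79a, both parts of the B cell receptor. Of 8 myeloid and mast cell markers the carboxypeptidase Cpa3 was higher (log2 3.04) and the chymase Cma1 lower (-0.90). The Cma1 value rests on a probe set flagged as dim. Of 8 genes listed as markers of non-haematopoietic cells only Pecam1 was called, higher at 0.59, and it is an endothelial marker that blood cells also express. Of 8 reference genes Gusb was higher (0.58). Their part in the results below was not tested.

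Cells in which BCR-ABL stood in for IL-3 (arrays A and B, n = 2) were first compared with the parental line on IL-3 (n = 1). Acss2, which makes acetyl-CoA from acetate, fell 3.17-fold, while the isoprenoid enzyme Idi1 and the sterol enzyme Hsd17b7 each rose 1.5-fold. The other 27 members did not pass limma's test at an adjusted p under 0.05. The 2 members called higher compare with 5.19% of all genes called higher, and the 1 called lower with 2.87%, so the shares of 30 members are near the background. A and B were both above the parental array for 13 of 30 members, where 27.9% of all genes were, and both below it for 9 of 30, where 42.0% were. With each array centred on its median these counts were 16 and 7 of 30, against 35.9% of all genes for each. The median of the members was 0.057, beside -0.038 for all genes. The smallest difference called among all genes was 0.51, and only these 3 members differed by that much. These calls lean on limma's estimate of how much variances differ between genes, which rests on 1 residual degree of freedom. With that estimate replaced by a cautious fixed value none of the 3 passed, at adjusted p = 0.0569 for Acss2, 0.188 for Idi1 and 0.258 for Hsd17b7 (limma with the prior held at 4 degrees of freedom).

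Acss2 stood at -1.50 on A, -1.83 on B and -1.45 on the IL-3 array. All 3 BCR-ABL arrays were far below the parental array, and the gap between A and B was small beside that distance. The fitted difference without IL-3 was -1.66 (SE 0.17, 95% interval -2.02 to -1.31, limma adjusted p = 3.27e-06), which ranked 20 from the lowest of all 19935 genes. On the IL-3 array the gene was 2.73-fold below the parental array, so its low value was seen with and without the growth factor. All 3 values, like those of every gene here, are differences from the same single parental array. An unusual value on that array would move them together.

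Idi1, which interconverts the isoprenoid building blocks, stood at 0.62 on A, 0.55 on B and 0.15 on the IL-3 array. Both arrays without IL-3 were above the parental array and close together, and the IL-3 array lay between them and the parental array. The difference without IL-3 was 0.58 (SE 0.15, 95% interval 0.26 to 0.91, limma adjusted p = 0.0222). Its 2 probe sets gave similar values, at 0.59 and 0.65 on A and at 0.53 and 0.57 on B. Hsd17b7, which reduces a keto group on the sterol ring, stood at 0.71 on A, 0.46 on B and 0.23 on the IL-3 array. The difference without IL-3 was 0.59 (SE 0.16, 95% interval 0.25 to 0.93, limma adjusted p = 0.0301), and with each array centred on its median the adjusted p was 0.0603.

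**Figure D1:**
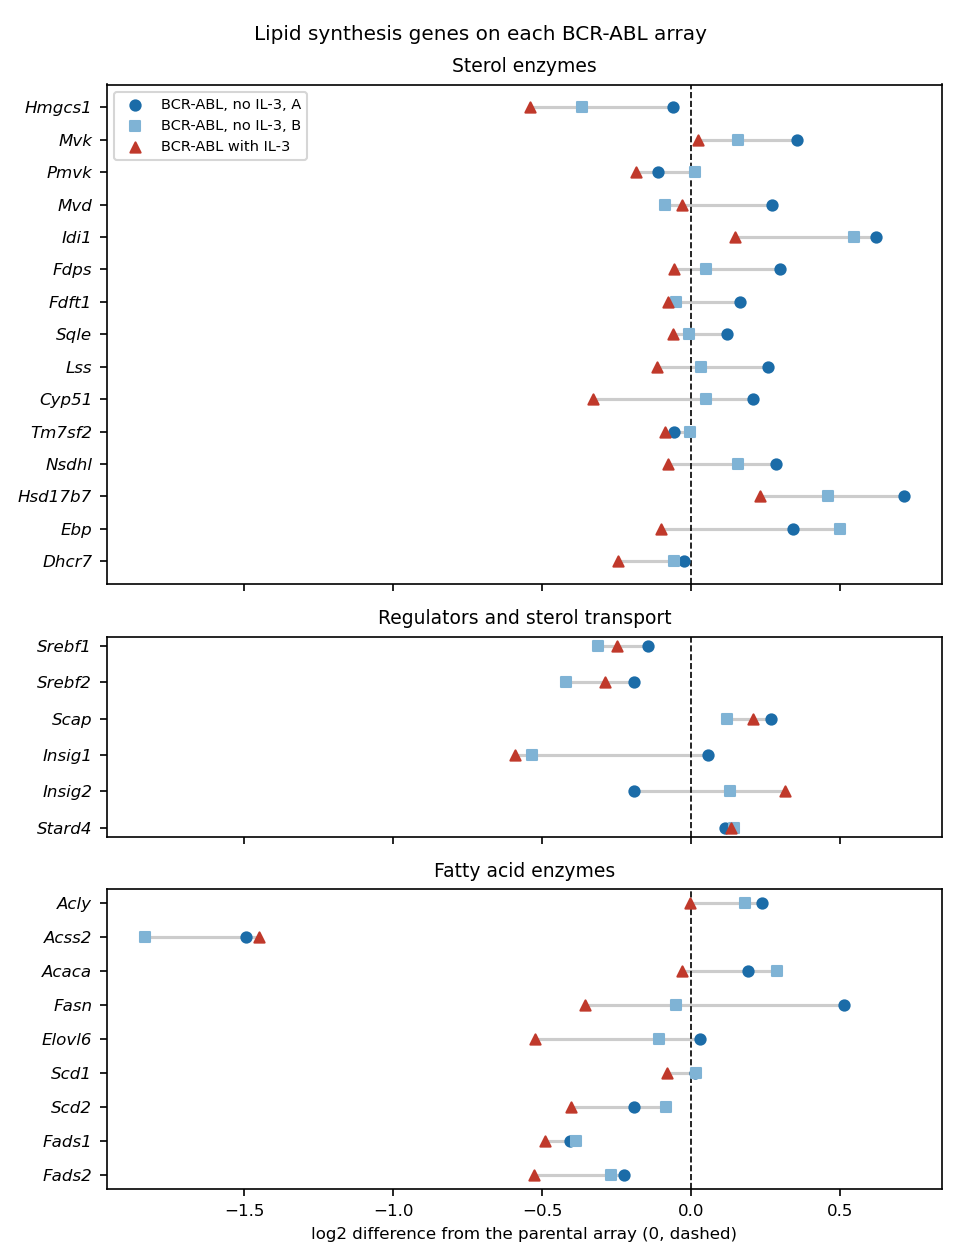
Log2 difference from the parental array (x axis) for each of the 30 measured genes (y axis) on arrays A and B without IL-3 and on the array with IL-3, each point 1 array and grey lines the range. Acss2 lies between -1.83 and -1.45 on all 3 arrays, and the IL-3 array is the lowest point for 14 of 15 sterol enzymes.

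None of the remaining sterol enzymes passed the test without IL-3. At the head of the pathway, Hmgcs1, which makes HMG-CoA, stood at -0.060 on A, -0.37 on B and -0.54 with IL-3. The mevalonate kinase gene Mvk was at 0.36, 0.16 and 0.023 on these arrays, and the phosphomevalonate kinase gene Pmvk at -0.11, 0.012 and -0.19. Mvd, which encodes the decarboxylase that follows them, was at 0.27 on A, -0.090 on B and -0.032 with IL-3. Except for Mvk, A and B lay farther apart in these genes than their mean lay from the parental array.

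Farther along, Fdps, which makes farnesyl diphosphate, stood at 0.30 on A, 0.050 on B and -0.059 with IL-3. Fdft1, the squalene synthase gene, was at 0.16, -0.050 and -0.077, and Sqle, the squalene epoxidase gene, at 0.12, -0.0090 and -0.063. Lss, which closes the ring to lanosterol, was at 0.26, 0.031 and -0.11. All 4 were highest on A and lowest with IL-3.

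Among the enzymes that trim lanosterol to cholesterol, the demethylase gene Cyp51 stood at 0.21 on A, 0.049 on B and -0.33 with IL-3, and Nsdhl, a decarboxylating dehydrogenase, at 0.28, 0.16 and -0.077. Ebp, the sterol isomerase gene, was at 0.34, 0.50 and -0.10. Ebp had the next largest positive difference after the called genes, at 0.42 (95% interval 0.09 to 0.75), and did not pass (limma adjusted p = 0.131). The reductase genes Tm7sf2 (-0.058, -0.0035 and -0.088) and Dhcr7 (-0.024, -0.056 and -0.25) stayed close to the parental array without IL-3.

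None of the 6 regulators was called by limma, and 0 had an unadjusted p under 0.05, where 16.6% of all genes did. Srebf1, which encodes the SREBP form tied mostly to fatty acid genes, stood at -0.15 on A, -0.31 on B and -0.25 with IL-3. Srebf2, the form tied mostly to sterol genes, was at -0.19, -0.42 and -0.29. Both were below the parental array on all 3 arrays, with fitted differences without IL-3 of -0.23 and -0.31 (limma adjusted p = 0.612 and 0.38). Scap was above it on all 3, at 0.27, 0.12 and 0.21. Stard4, which carries sterol between membranes, differed little among the BCR-ABL arrays at 0.11, 0.14 and 0.13.

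The INSIG genes gave opposite values. Insig1, itself a target of SREBP, stood at 0.055 on A, -0.53 on B and -0.59 with IL-3, so that A was near the parental level while B and the IL-3 array lay together below it. Insig2 ran the other way, at -0.19 on A, 0.13 on B and 0.31 with IL-3. Neither gene passed in either comparison, and the 2 arrays without IL-3 differed 1.5-fold for Insig1 and 1.25-fold for Insig2.

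In the fatty acid branch none of the enzymes that supply and extend carbon chains passed the test besides Acss2. Acly, which makes acetyl-CoA from citrate, stood at 0.24 on A, 0.18 on B and -0.0032 with IL-3. Acaca, the acetyl-CoA carboxylase gene, was at 0.19, 0.29 and -0.030. Fasn, the fatty acid synthase gene, was at 0.51 on A, -0.050 on B and -0.36 with IL-3, so A and B lay on opposite sides of the parental array. Elovl6, which lengthens palmitate, was at 0.028, -0.11 and -0.52.

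The desaturases were at or below the parental level. Fads1 stood at -0.41 on A, -0.39 on B and -0.49 with IL-3, and Fads2 at -0.23, -0.27 and -0.53; these encode the desaturases of polyunsaturated fatty acids. Fads1 was low on all 3 arrays with little spread, at -0.40 without IL-3 (95% interval -0.72 to -0.074), and did not pass (limma adjusted p = 0.154). Of the stearoyl-CoA desaturases, Scd2 was at -0.19, -0.086 and -0.40, and Scd1 at 0.012, 0.016 and -0.080. Scd1 was the only member with a probe set flagged as dim, by a rule that can miss dim probe sets.

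**Figure D2:**
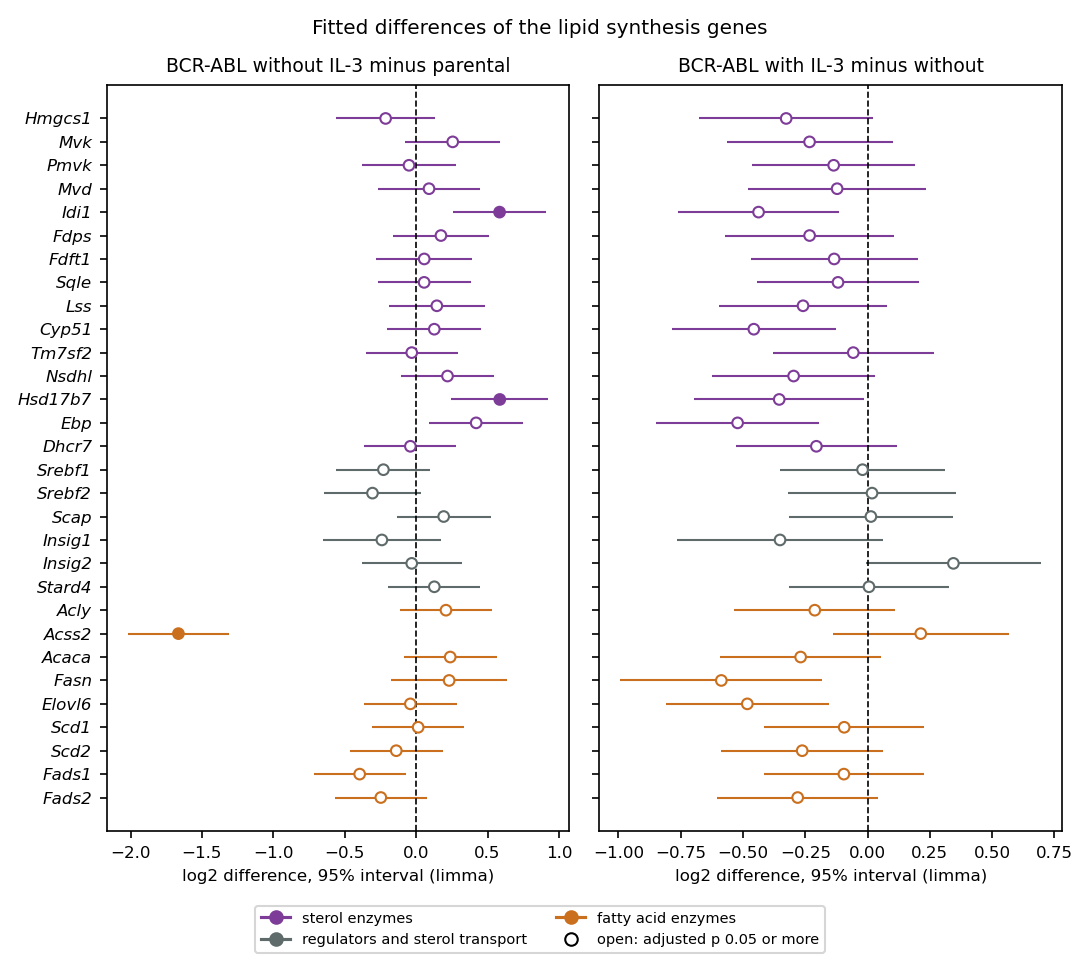
Fitted log2 difference with its 95% interval (x axis) for the 30 genes in both tested comparisons, filled where limma's adjusted p was under 0.05. Acss2, Idi1 and Hsd17b7 are filled on the left and no gene is filled on the right.

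The 2 arrays of BCR-ABL cells without IL-3 were then set against each other. B was below A for 12 of 15 sterol enzymes, 4 of 6 regulators and 5 of 9 fatty acid enzymes, or 21 of 30 in all, where 66.2% of all genes were lower on B. The share over the members is thus near the background, and after centring each array it was 17 of 30, against 45.8% of all genes. By size, B was at least 1.3-fold below A for Insig1 and Fasn, beside 2.02% of all genes, and at least that far above A for 0 members, beside 3.17%. The Insig1 and Fasn gaps of -0.59 and -0.56 were larger in size than those of 99.0% and 98.8% of all genes.

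Next, the IL-3 array (n = 1) was set against A and B (n = 2). Most lipid synthesis genes were lower on the IL-3 array, but no single gene passed the test. All of them were read on that same single array, so the genes are not separate observations. A shift of that array or culture would move them together, and this was not tested. Limma called 0 members higher and 0 lower, where 0.00502% and 0.0% of all genes were called. At an unadjusted p under 0.05, 6 of 30 members were lower and 0 higher, against 3.0% and 1.52% of all genes. The 6 were Fasn (-0.59), Ebp (-0.52), Elovl6 (-0.48), Cyp51 (-0.46), Idi1 (-0.44) and Hsd17b7 (-0.35), with limma adjusted p-values from 0.62 to 1.0. Because both comparisons use A and B, a gene that happened to be high on them is pushed up in the first and down in the second. Idi1 and Hsd17b7 have values of that kind in both, side by side at 0.58 and -0.44 and at 0.59 and -0.35. So do Ebp at 0.42 and -0.52, Fasn at 0.23 and -0.59 and Cyp51 at 0.13 and -0.46. Elovl6 was at -0.040 and -0.48.

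The IL-3 array lay below both A and B for 14 of 15 sterol enzymes and 8 of 9 fatty acid enzymes, where 25.5% of all genes did. The exceptions were Mvd, which lay between A and B, and Acss2, which lay above both. The IL-3 array was also below both for 6 of 8 reference genes and 8 of 12 genes of fatty acid oxidation, so this was not particular to the synthesis genes. Among other sterol and isoprenoid genes it was below both for 3 of 7 and above both for 3 of 7. For other fatty acid and glycerolipid synthesis these counts were 6 and 6 of 16, and for SREBP processing and turnover 4 and 1 of 8. They were 1 and 5 of 7 both for sterol uptake, storage and trafficking and for LXR and its targets. Of the 6 regulators only Insig1 was below both arrays and Insig2 above both (39.9% of all genes lay above both). With each array centred on its median, the IL-3 array lay below both for all 15 sterol enzymes, where it did for 36.3% of all genes. This centred count was not made for the related or reference lists. The medians of the fitted differences were -0.23 for sterol enzymes, -0.26 for fatty acid enzymes and 0.0092 for regulators, beside 0.034 for all genes. Against A alone the sterol median was -0.36, and against B alone -0.17.

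For 11 of 15 sterol enzymes the arrays stood in the order A, then B, then the IL-3 array, where 10.7% of all genes did. After centring 10 did, against 11.0%. The median of B minus A was -0.16 for sterol enzymes and -0.065 for all genes, and that of the IL-3 array minus B was -0.17 and 0.068.

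**Figure D3:**
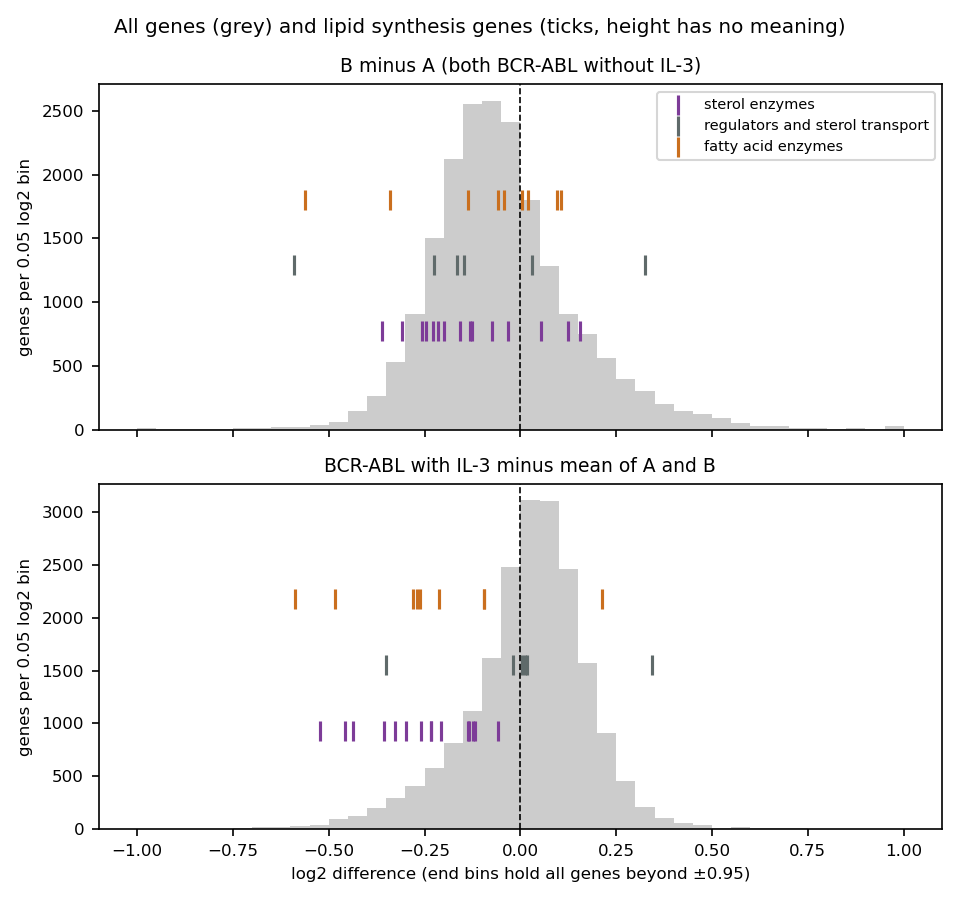
Number of genes per bin of 0.05 log2 (grey bars, all 19935 genes) for B minus A (top) and for the IL-3 array minus the mean of A and B (bottom), with each lipid synthesis gene as a tick. In the lower panel all 15 sterol enzyme ticks lie left of 0, while the median of all genes is 0.034.

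The third comparison set the BCR-ABL array with IL-3 against the parental array with IL-3, with 1 array each and therefore no test. Of the 30 members 24 were below the parental array, where 47.4% of all genes were. All 9 fatty acid enzymes were below it, with a median of -0.40, as were 12 of 15 sterol enzymes, with a median of -0.077. At least 1.3-fold below were 7 members, which were Acss2, Insig1, Hmgcs1, Fads2, Elovl6, Fads1 and Scd2, beside 6.26% of all genes. At least 1.3-fold above were 0 members, beside 6.63% of all genes. Insig1 was 1.51-fold, Hmgcs1 1.45-fold, and Elovl6 and Fads2 1.44-fold below the parental array. The sterol enzymes above it were Hsd17b7, Idi1 and Mvk.

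Genes next to the pathway were read from further lists in the first comparison, in which 5.19% of all genes were called higher and 2.87% lower. With lists of 7 to 16 genes, 1 call is a large share, and the counts below are descriptions. Among 7 measured genes of LXR, the nuclear receptor that senses oxysterols, and its targets, 1 was called higher and 3 lower. The cholesterol exporter Abca1 stood at -0.95 on A, -1.57 on B and -0.80 with IL-3 (fitted difference -1.26, limma adjusted p = 0.000459). Its relative Abcg1 stood at 0.81, 0.71 and 1.00 (fitted difference 0.76, limma adjusted p = 0.00363), so the 2 exporters differed from the parental array in opposite directions. Mylip, which targets lipoprotein receptors for degradation, and the receptor partner Rxrb were lower, at -0.57 and -0.54. Both of these calls were lost with each array centred on its median (limma adjusted p = 0.0883 and 0.0899).

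Of 12 measured genes of fatty acid oxidation 0 were called higher and 2 lower. Cpt1a, the gate for fatty acids entering mitochondria, stood at -1.14 on A, -1.23 on B and -1.35 with IL-3 (fitted difference -1.18, limma adjusted p = 5.97e-05). Etfdh, which passes electrons from this pathway to the respiratory chain, was at -0.56, a call lost with each array centred on its median (limma adjusted p = 0.114). Of 16 genes of other fatty acid and glycerolipid synthesis only Hsd17b12, a chain elongation enzyme, was called, and it was higher at 0.84. Of 7 other sterol and isoprenoid genes Nus1, a subunit of the enzyme that makes dolichol, was called higher at 0.65. With each array centred on its median its difference was 0.69, but the call was lost (limma adjusted p = 0.0732).

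Of 8 genes of SREBP processing and turnover, the ubiquitin-conjugating enzyme gene Ube2g2 (0.61) and the ubiquitin ligase subunit gene Fbxw7 (0.57) were called higher and 0 lower. With each array centred on its median the Fbxw7 call was lost (limma adjusted p = 0.0883), and this gene has a probe set flagged as dim. Of 7 genes of sterol uptake, storage and trafficking 0 were called by limma and 1 had an unadjusted p under 0.05, beside 16.6% of all genes, with the lysosomal lipase Lipa at -0.45 and the sterol carrier Stard5 at 0.33. With the prior held at 4 degrees of freedom none of the called genes of these lipid lists passed, Cpt1a coming nearest at adjusted p = 0.0616.

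**Figure D4:**
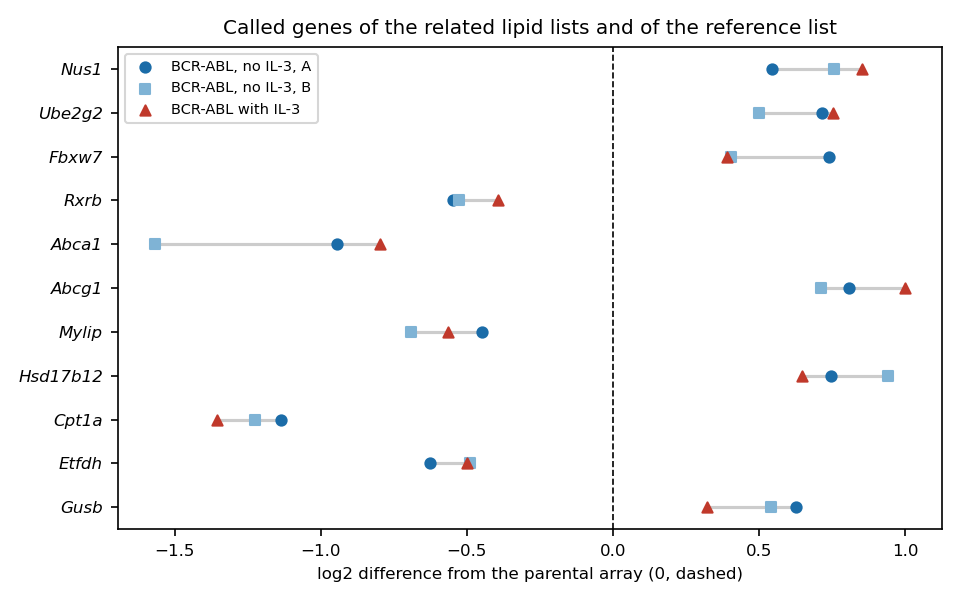
Log2 difference from the parental array (x axis) for the genes called by limma in the related lipid lists and the reference list (Gusb), each point 1 array. Abca1 and Cpt1a lie below the parental array on all 3 BCR-ABL arrays, and Abcg1 above it on all 3.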

How the data were processed

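The authors deposited log2 values, as read here, for 28815 probe sets on 4 arrays. The parental column is 0 throughout, so each value was read as a log2 difference from that array, taken by the authors before the values were deposited. The scale is not stated in the sources used here. Base 2 is an assumption, since the spacing of the values cannot show the base, and every fold given here rests on it. Background correction, normalization and summarisation are not given in the sources used here. Of the probe sets 21780 had 1 symbol in the platform annotation, 1605 had several and 5430 were not listed, and only the first kind was used. Probe sets of a gene were averaged, which affects 3 members. A probe set was called dim where a value was an odd multiple of 2 to the power -21, as a stored number below 8 can give. Such a number can also give an even multiple, so the rule can miss dim probe sets.

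All arrays were fitted with limma (version 3.58.1, R 4.3.3) as 3 group means, two-sided, with Benjamini-Hochberg adjustment over 19935 genes. The lone arrays were assumed to vary like A and B. The prior was estimated at 16.38 degrees of freedom, and at 5.016 with each array centred on its median. On simulated data the fit recovered known changes, but with 1 residual degree of freedom the prior was usually overestimated and false calls usually exceeded the nominal rate. They returned to about that rate when the true prior was supplied. That true prior was the 16.38 estimated here, so the simulation does not show which value is right for these data. A fit with the prior held at 4 was added after the data were seen. The value 4 was picked as a cautious one below the estimates on these data. The number of arrays limits precision.

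Members and lists were chosen with earlier results of these data known. All members are named, and from other lists the called genes, or the 2 largest differences. Promoters come from RefSeq, GRCm38.p6.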

Additional observations from a re-analysis of the deposited data

How the results depend on the processing

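In the first comparison 2 members were called higher and 1 lower under robust moderation, single probe sets and the exclusion of dim genes. The fit of only the groups compared and a threshold of 0.1 gave the same counts. That fit repeats the main one, since a lone array adds no residual degree of freedom, and a looser threshold cannot lose a call. Centring each array on its median left Idi1 and Acss2, with 1 member higher. Over all genes it gave 637 higher and 299 lower against 1035 and 572. Centring also lowered limma's estimated prior from 16.38 to 5.016 degrees of freedom. The shift of the arrays and the change of prior therefore cannot be told apart in these counts. With the prior held at 4 degrees of freedom, added after the data were seen, 0 members were called either way and 59 and 23 of all genes. In the second comparison no alternative called a member, and over all genes the 1 higher call became 0 with centring or the fixed prior and 2 at the threshold of 0.1 or with single probe sets.

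Centring moved the median of regulators in the first comparison from -0.13 to -0.094, and that of fatty acid enzymes in the second from -0.26 to -0.31. Leaving out A or B leaves no residual degree of freedom, so only medians are given. In the first comparison they ran from 0.0042 to 0.12 over all members, from 0.031 to 0.26 for sterol enzymes, from -0.096 to -0.046 for regulators and from -0.086 to 0.012 for fatty acid enzymes. In the second they ran from -0.24 to -0.14, from -0.36 to -0.17, from -0.078 to 0.074 and from -0.26 to -0.22. The sign for fatty acid enzymes in the first comparison, and for regulators in the second, therefore depends on which array is kept. For regulators in the first comparison, the median of -0.13 from the mean of A and B was lower than with either array alone. The cause of these shifts was not tested. Signal over background could not be read from differences.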
